A study of Mus musculus with 6 samples.

Results

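A set of 10 genes of bone morphogenetic protein (BMP) signalling were examined in mouse intestinal crypt stem cells that overexpressed a circular RNA, circEZH2_005, or carried the vector. They were the ligands Bmp2 and Bmp4, the receptors Bmpr1a and Bmpr2, the common mediator Smad4, the inhibitory Smads Smad6 and Smad7, and the target genes Id1, Id2 and Id3. Members were taken by gene symbol from the gene table, and all 10 of 10 were among its 28752 genes. RNA was sequenced from 6 samples, 3 labelled vector and 3 labelled circEZH2_005. All 6 were of wild-type genotype and went through hypoxia/reoxygenation (H/R), with 4 h at 2% O2 and 5% CO2. The study's methods describe its crypt-villus organoids as grown in IntestiCult medium from sorted Lgr5+ cells of Lgr5-GFP mice. How this GFP origin and the wild-type genotype go together is not stated. The circEZH2_005 RNA was delivered by an adenovirus 72 h before H/R according to the labels, while the study's methods text gives another interval. The same 72 h is listed for the 3 vector samples, so the listed infection time did not differ between groups. No sample without H/R was compared here, and adenoviral delivery is not tied to 1 cell type. The labels do not say whether the 3 samples of a group came from separate mice or cultures, so p-values measure the spread between these samples, which may be technical.

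BMP ligands bind a complex of type I and type II receptors, and the activated type I receptor phosphorylates Smad1, Smad5 and Smad9, which join Smad4 and enter the nucleus. There they switch on Id genes, whose products block basic helix-loop-helix factors, and Smad6 and Smad7, which feed back to restrain the same receptors. In the intestine BMP signalling is low at the crypt base, where secreted antagonists such as Noggin and Gremlin act, and high towards the villus, where it favours differentiation.

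Total counts per sample ranged from 71506487 to 79919893, at which 3 counts were worth 0.0377 to 0.0419 CPM (counts scaled to the library size, after TMM correction). The epithelial marker genes summed to 7638 to 8030 CPM in vector samples and 9223 to 11524 CPM in circEZH2_005 samples. Lgr5, which marks crypt stem cells, was present but low, at 16.1, 12.1 and 18.3 CPM in vector samples and 8.55, 9.10 and 7.70 CPM in circEZH2_005 samples (log2 fold change -0.88, adjusted p = 0.0434). That call held without vector sample 2 (adjusted p = 0.00786) and was lost without any other single sample (adjusted p = 0.0714 to 0.166). Of the 10 stem cell markers, Lgr5 and Smoc2 fell and 8 did not pass, with a median log2 fold change of -0.34 and 2 positive values. The Smoc2 call held without vector sample 2 or circEZH2_005 sample 1. It was lost without any other single sample (adjusted p = 0.0520 to 0.103). Over all genes tested, 2.69% rose and 0.986% fell. Enterocyte markers summed to 12680 to 14798 CPM in vector samples and to 13290, 25486 and 19450 CPM in circEZH2_005 samples 1, 2 and 3. Of these 7 markers 5 had positive log2 fold changes (median 0.86) and Apoa4 rose, a call lost without vector sample 1 or 3 or circEZH2_005 sample 2 or 3. All 6 Paneth cell markers had negative log2 fold changes (median -0.60) and none passed. Their part in the BMP gene values was not tested. Enterocyte sums exceeded the 1256 to 2656 CPM of the stem cell markers in all samples, so the stem cell label covers cultures that also held RNA of differentiated cells. In bulk RNA, fewer cells of a type and less RNA per cell cannot be told apart. Leukocyte markers, which a sort for Lgr5-GFP would remove, summed to 184, 662 and 229 CPM in vector samples and 1829, 1399 and 1012 CPM in circEZH2_005 samples, and vector sample 2 therefore stood apart within its group. The overexpressed RNA itself could not be checked, because the table counts genes and not circular RNAs.

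Levels of different genes were compared as FPKM, which divides by transcript length. Averaged over the 6 samples, Id1 had the highest level of the 10 genes at 40.7 FPKM, followed by Smad4 at 30.2, Id3 at 22.6, Bmpr1a at 19.7 and Id2 at 12.4 FPKM. Smad7 followed at 4.06, Bmpr2 at 2.25, Bmp2 at 2.19, Smad6 at 1.58 and Bmp4 at 0.0422 FPKM. Id1 was above 96.0% of listed genes and Bmp4 above 29.4%. The ranges over samples overlapped between Id1 and Smad4, between Smad4 and Id3, and between Id3 and Bmpr1a. They also overlapped between Smad7 and Bmp2, and among Bmpr2, Bmp2 and Smad6. The genes named together here were not separated beyond their spread. The type I receptor Bmpr1a, the common Smad and the Id genes were all well expressed, whereas Bmp4 was close to the limit of detection.

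**Figure D1:**
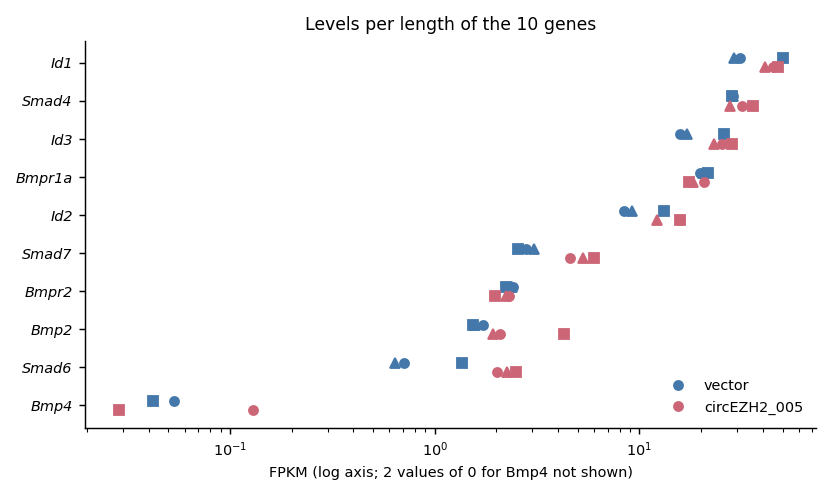
Level of the 10 BMP genes in FPKM (horizontal log axis), 1 point per sample. Id1 had the highest mean at 40.7 FPKM, and Bmp4 lay at or below 0.129 FPKM in all 6 samples.

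Smad6 and Smad7 rose in circEZH2_005 samples, by 2.68-fold and 2.02-fold, and were the only members to pass an adjusted p of 0.05. No member fell. Of all 18348 genes tested, 493 (2.69%) were higher and 181 (0.986%) lower at that threshold, beside 2 of the 9 members tested. Of those 9, 7 had a positive log2 fold change, with a median of 0.47, beside 50% positive and a median of 0.00 over all genes. With a fold over 2 and an unadjusted p under 0.05, the same 2 members passed, beside 6.22% of all genes. In CPM, 5 members (Bmp2, Smad4, Smad6, Smad7 and Id2) had all 3 circEZH2_005 samples above all 3 vector samples, which held for 16.4% of all genes, and none had the reverse, which held for 14.2%. In FPKM, Smad4 and Id2 overlapped between groups. Smad4 in circEZH2_005 sample 3 was at 27.6 FPKM, below all vector samples. Id2 was at 13.1 FPKM in vector sample 2 and 12.2 FPKM in circEZH2_005 sample 3.

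**Figure D2:**
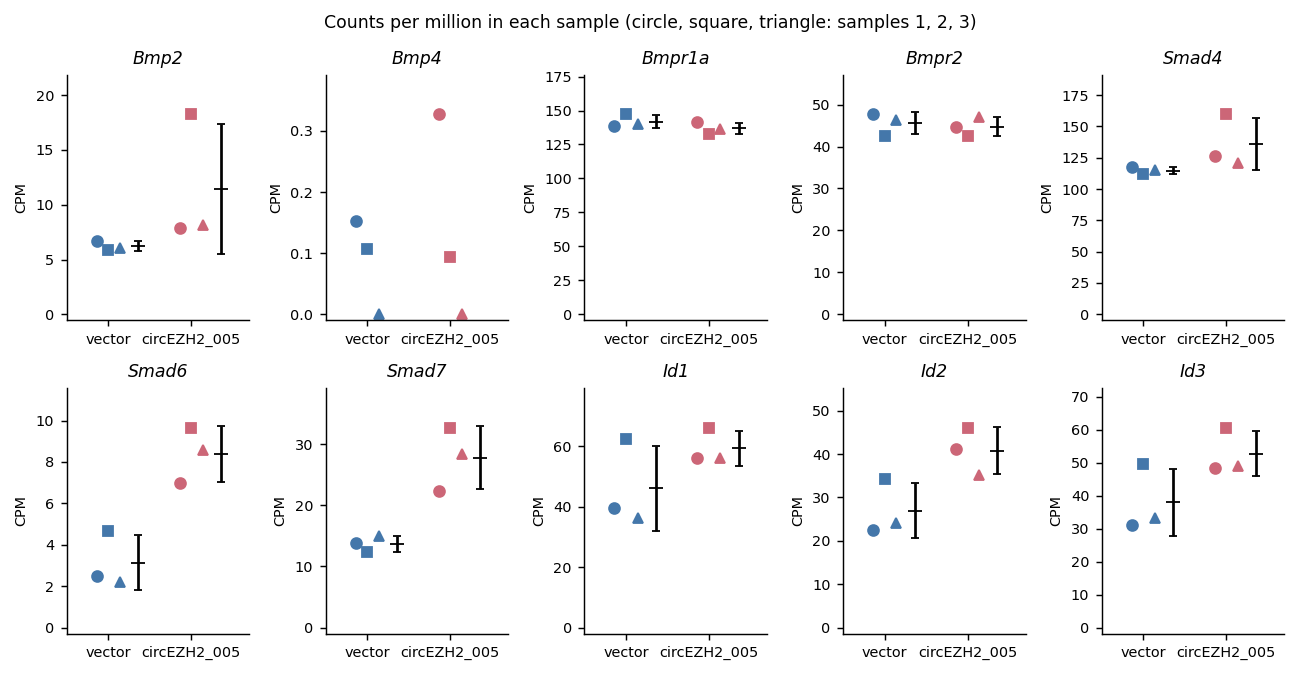
CPM of each BMP gene in each sample (circle, square and triangle for samples 1, 2 and 3 of a group, a numbering that was not taken to pair them across groups). Bars give the mean ± SD (n = 3), drawn for all but Bmp4, and for Smad6 and Smad7 the 2 groups were separate.

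Smad6, which competes with Smad4 for Smad1 and blocks type I receptors of the BMP branch, lies on chromosome 9 (mm10, 63953076 to 64022059, minus strand, ENSMUSG00000036867). Its level was 2.50, 4.66 and 2.22 CPM in vector samples and 6.97, 9.65 and 8.57 CPM in circEZH2_005 samples. All circEZH2_005 samples were above the highest vector sample, which was vector sample 2. The means were 3.13 ± 1.33 and 8.40 ± 1.35 CPM (SD, n = 3), and the log2 fold change was 1.42 ± 0.30 (SE, 95% interval 0.72 to 2.13, adjusted p = 0.0491). The call was close to the threshold. Without vector sample 2 the log2 fold change was 1.83, with adjusted p = 0.00511, while leaving out any other single sample lost the call, with adjusted p values of 0.0610 to 0.172 and log2 fold changes of 1.22 to 1.54.

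Smad7, which inhibits receptors of both the BMP and the TGF-beta branch, lies on chromosome 18 (75367529 to 75395935, plus strand, ENSMUSG00000025880). It was measured at 13.9, 12.3 and 14.9 CPM in vector samples and at 22.3, 32.7 and 28.3 CPM in circEZH2_005 samples. The groups did not overlap, and vector sample 2 was the lowest of its group here, unlike for Smad6. The means were 13.7 ± 1.31 and 27.8 ± 5.19 CPM (SD, n = 3), with a log2 fold change of 1.02 ± 0.16 (SE, 95% interval 0.65 to 1.38, adjusted p = 0.0241). The call held without vector sample 2 (adjusted p = 0.0206) and without circEZH2_005 sample 1 (adjusted p = 0.0121). It was lost without vector sample 1 (0.111), vector sample 3 (0.107), circEZH2_005 sample 2 (0.0879) or circEZH2_005 sample 3 (0.0640, all adjusted p), while the log2 fold change stayed between 0.88 and 1.08.

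**Figure D3:**
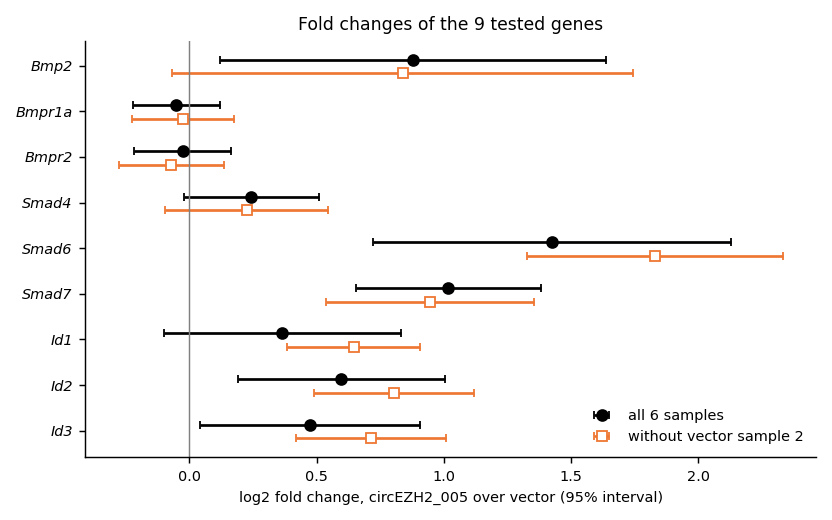
Log2 fold change of the 9 tested BMP genes, circEZH2_005 over vector, with its 95% interval, from all 6 samples and without vector sample 2. Smad6 at 1.42 and Smad7 at 1.02 lay farthest from 0, and Bmpr1a and Bmpr2 lay at -0.05 and -0.03.

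Id1, Id2 and Id3, which encode inhibitors of DNA binding and are direct targets of BMP Smads, had higher means in circEZH2_005 samples but did not pass the test. Id1 (chromosome 2, 152736251 to 152737410, plus strand, ENSMUSG00000042745) was at 39.7, 62.4 and 36.3 CPM in vector samples and at 56.04, 66.2 and 56.04 CPM in circEZH2_005 samples. The groups overlapped because vector sample 2 exceeded 2 circEZH2_005 samples. The means were 46.1 ± 14.2 and 59.4 ± 5.86 CPM (SD, n = 3), and the log2 fold change was 0.37 ± 0.20 (SE, 95% interval -0.10 to 0.83, adjusted p = 0.318).

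Id2 (chromosome 12, 25093799 to 25097140, minus strand, ENSMUSG00000020644) was at 22.6, 34.2 and 24.2 CPM in vector samples and at 41.2, 46.1 and 35.2 CPM in circEZH2_005 samples. The groups did not overlap in CPM, although vector sample 2 came within about 1 CPM of circEZH2_005 sample 3, and in FPKM they overlapped. Its log2 fold change was 0.60 ± 0.18 (SE, 95% interval 0.19 to 1.00, adjusted p = 0.0942). Id3 (chromosome 4, 136143497 to 136145392, plus strand, ENSMUSG00000007872) was at 31.2, 49.5 and 33.1 CPM in vector samples and at 48.4, 60.5 and 49.04 CPM in circEZH2_005 samples. Here too vector sample 2 lay above 2 circEZH2_005 samples, and the log2 fold change was 0.47 ± 0.19 (SE, 95% interval 0.04 to 0.91, adjusted p = 0.176).

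The 3 Id genes and Smad6 shared the high value of vector sample 2. Relative to the mean of the other vector samples, vector sample 2 was 1.64-fold for Id1, 1.46-fold for Id2, 1.54-fold for Id3 and 1.97-fold for Smad6, but 0.856-fold for Smad7. Against vector sample 2 alone, the circEZH2_005 mean was 0.953-fold for Id1, 1.19-fold for Id2, 1.06-fold for Id3, 1.80-fold for Smad6 and 2.25-fold for Smad7. Without vector sample 2 (2 vector against 3 circEZH2_005 samples), the log2 fold changes were 0.65 for Id1 (adjusted p = 0.0165), 0.80 for Id2 (adjusted p = 0.0144) and 0.71 for Id3 (adjusted p = 0.0175), so that 5 members passed. The share of all genes called higher also grew in that fit, to 5.74%, and this sample was singled out after its values were seen.

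The sum of leukocyte markers was also highest in vector sample 2 among vector samples (662 CPM, against 184 and 229 CPM), but there it stayed below all circEZH2_005 samples (1012 to 1829 CPM). Within the circEZH2_005 group the order differed, since the leukocyte sum was highest in sample 1 and the Id genes and Smad6 in sample 2. All 16 leukocyte markers tested had positive log2 fold changes, with a median of 1.74, and 9 of them did not overlap between groups, although none passed the test on all 6 samples (9 passed without vector sample 2; Ptprc, the pan-leukocyte CD45 gene, had adjusted p = 0.0756 with all samples). None of the 16 was at 0 in all samples. Their part in the Id and Smad6 values was not tested. Fibroblasts and muscle are a common source, though not the only one, of BMP ligands and antagonists. Their markers summed to 5.39 to 8.33 CPM in vector samples and 3.03 to 11.8 CPM in circEZH2_005 samples. Of these markers 0 of 9 tested were called, and Foxl1 and Gli1 were too low to test.

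**Figure D4:**
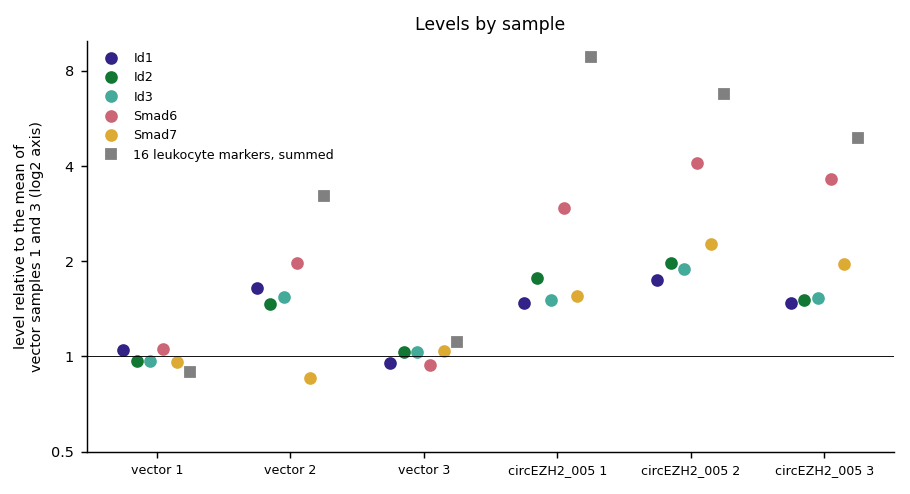
Level of Id1, Id2, Id3, Smad6, Smad7 and the summed leukocyte markers in each sample, relative to the mean of vector samples 1 and 3 (vertical log2 axis). In vector sample 2, Id1 was at 1.64, Id2 at 1.46, Id3 at 1.54 and Smad6 at 1.97, while Smad7 was at 0.856.

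Over the 6 samples the Id genes followed each other closely. Pearson's r of log2 CPM was 0.917 between Id1 and Id2, 0.967 between Id1 and Id3, and 0.968 between Id2 and Id3. Smad6 followed the Id genes, with r of 0.883 for Id1, 0.935 for Id2 and 0.932 for Id3, and Smad7 did so less closely, with 0.535, 0.729 and 0.680. These values are descriptions over 6 samples that include the group difference. Among the 11638 genes that averaged 1 FPKM or more, those most like Id1 were Unc119b (r = 0.992), LTO1 (0.992) and Gm12250 (0.987). For Id2 they were G3bp2 (0.997), Sp110 (0.996) and Tuba4a (0.994), and for Id3 they were Pomp (0.996), Snora31 (0.990) and Trim21 (0.990). Such likeness was common with 6 samples: 254 genes exceeded r = 0.9 for Id1, 737 for Id2 and 467 for Id3.

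Promoter sequence was read from RefSeq (GRCm38.p6) for 6 of the 10 members, over the 250 bases before the gene start of that table, to show the letters that Smad proteins are known to bind. The letters searched were GTCT, the short Smad-binding element, with its reverse complement AGAC, and the palindrome GGCGCC, a GC-rich element of BMP Smads. Matches of the 2 motifs cannot overlap, and over 32851 windows of all genes GTCT or AGAC occurred in 82.9% and GGCGCC in 9.59%. Smad6, the member with the largest log2 fold change, is shown with its whole window at chr9:64022060-64022309 (minus strand), in which no exon is annotated. Its RefSeq start is that of the gene table, whereas the RefSeq start lay 1048 bases inside the gene as listed in the table for Id2, 325 bases for Id3, 879 bases for Bmpr2 and 141 bases for Bmpr1a. The windows of these 4 genes therefore lie wholly or partly within the listed gene and overlap annotated exons of it, so they can hold transcribed sequence. Id2 and Id3 are shown as 30-base stretches around each match, and capitals mark the matched letters in all lines.
Smad6: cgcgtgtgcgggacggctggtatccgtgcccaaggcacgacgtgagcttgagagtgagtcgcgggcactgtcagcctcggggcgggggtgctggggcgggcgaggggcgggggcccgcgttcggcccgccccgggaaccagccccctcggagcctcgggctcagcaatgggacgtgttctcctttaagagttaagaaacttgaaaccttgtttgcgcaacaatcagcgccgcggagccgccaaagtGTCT
Id2 at chr12:25096306-25096335 (minus strand): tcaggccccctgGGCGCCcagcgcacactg
Id2 at chr12:25096099-25096128 (minus strand): gagtgcacataaaAGACgccccgcccggct
Id3 at chr4:136143643-136143672 (plus strand): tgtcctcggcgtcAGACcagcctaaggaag
Id3 at chr4:136143741-136143770 (plus strand): tggacccttggcgGTCTgttttgaataagg
Counted from -1 at the base before the RefSeq start, the match in Smad6 began at -4, those in Id2 at -231 and -23, and those in Id3 at -166 and -68. Smad6 and Id3 held no GGCGCC in this window, whereas Bmpr1a at -198 and Bmpr2 at -105, whose levels are given next, each held 1. The GC content was 66.8% for Smad6, 62.8% for Id2 and 62.8% for Id3, against a median of 52.4% over all windows.

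Neither receptor passed the test, and their intervals were narrow. Bmpr1a, a type I receptor of the BMP branch (chromosome 14, 34410734 to 34502687, minus strand, ENSMUSG00000021796), was at 138, 147 and 140.3 CPM in vector samples and at 141, 133 and 136 CPM in circEZH2_005 samples. The groups overlapped, with a log2 fold change of -0.05 ± 0.07 (SE, 95% interval -0.22 to 0.12, adjusted p = 0.722). Bmpr2, a type II receptor (chromosome 1, 59763400 to 59879014, plus strand, ENSMUSG00000067336), was at 47.6, 42.6 and 46.4 CPM and at 44.6, 42.5 and 47.1 CPM, in the same order of groups. Its log2 fold change was -0.03 ± 0.08 (SE, 95% interval -0.22 to 0.16, adjusted p = 0.884). On the linear scale these intervals spanned 0.856-fold to 1.09-fold for Bmpr1a and 0.861-fold to 1.12-fold for Bmpr2. Exons of Gm17110, annotated on the other strand, overlap those of Bmpr1a, and the strand setting of the counting is not given in the sources used here.

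Neither ligand passed the test. Bmp2, which signals through these receptors (chromosome 2, 133552159 to 133562885, plus strand, ENSMUSG00000027358), was at 6.73, 5.85 and 6.06 CPM in vector samples and at 7.91, 18.2 and 8.12 CPM in circEZH2_005 samples. The groups did not overlap, but circEZH2_005 sample 2 was 2.27-fold the mean of the other circEZH2_005 samples. The log2 fold change was 0.88 ± 0.33 (SE, 95% interval 0.12 to 1.64, adjusted p = 0.156), and without circEZH2_005 sample 2 it was 0.37 (adjusted p = 0.309). Bmp4, made mainly by mesenchyme in the intestine (chromosome 14, 46383520 to 46390669, minus strand, ENSMUSG00000021835), had 11, 8 and 0 counts in vector samples and 26, 7 and 0 counts in circEZH2_005 samples. It was removed by the filter on low counts, its groups overlapped (exact two-sided permutation test on log2 CPM with 0.5 added, p = 0.9), and no difference was detectable at this depth.

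Smad4, the partner of all receptor-regulated Smads (chromosome 18, 73639009 to 73703780, minus strand, ENSMUSG00000024515), was at 117, 112 and 115 CPM in vector samples and at 127, 159.5 and 121 CPM in circEZH2_005 samples. The groups did not overlap in CPM but did in FPKM, and circEZH2_005 sample 2 was again the highest. The log2 fold change was 0.24 ± 0.11 (SE, 95% interval -0.02 to 0.51, adjusted p = 0.249), and 0.11 without circEZH2_005 sample 2 (adjusted p = 0.512). Smad4 and Bmp2 varied together over the 6 samples (r = 0.990), both with their highest value in that sample. For single genes, an exact permutation test of 3 against 3 samples cannot give p below 0.1, the value reached by each of the 5 members whose groups did not overlap in CPM.

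The rest of the pathway was read from lists that together named 80 genes, of which 69 were in the table and 57 could be tested. Of these, 6 rose and 1 fell, and outside the 10 members 4 of 48 rose and 1 fell, with a median log2 fold change of 0.02. Over all genes tested, 2.69% were higher and 0.986% lower, the shares to set beside each list below. Among 7 tested BMP ligands none passed. Bmp3, an atypical ligand that can oppose BMP signalling, had the highest level of them, at 65.5, 40.8 and 71.7 CPM in vector samples and 31.6, 35.4 and 26.5 CPM in circEZH2_005 samples. Its groups did not overlap, with a log2 fold change of -0.93 ± 0.21 (SE, adjusted p = 0.0564). Without vector sample 2, Bmp3 passed as lower and Bmp8a as higher.

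Of 9 tested receptors and co-receptors, Rgmb fell and 8 did not pass. Rgmb, a membrane-anchored BMP co-receptor, was at 63.8, 61.9 and 70.7 CPM in vector samples and 44.4, 39.9 and 47.5 CPM in circEZH2_005 samples. The groups were separate, and the log2 fold change was -0.58 ± 0.09 (SE, adjusted p = 0.0284). Of 11 secreted antagonists in the table, 5 could be tested and none passed. Nog and Grem1, which encode Noggin and Gremlin, were nearly absent. Nog had 4 counts in 1 vector sample and 0 in the other 5 samples, and Grem1 had 3 counts in 1 circEZH2_005 sample and 0 elsewhere. Twsg1, an extracellular BMP-binding protein and the highest of the list, went from 49.9 ± 3.74 to 41.9 ± 4.41 CPM (SD, n = 3, adjusted p = 0.195).

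None of the 6 receptor-regulated and common Smads passed. Of 11 inhibitors of Smad signalling, 4 rose, namely Smad6, Smad7, Smurf1 and Skil, and none fell. Skil, whose product SnoN represses Smad-driven transcription, was at 61.3, 65.04 and 62.6 CPM in vector samples and at 117, 150.1 and 134 CPM in circEZH2_005 samples. All circEZH2_005 samples lay well above the vector samples, with a log2 fold change of 1.09 ± 0.10 (SE, adjusted p = 0.00658). Smurf1, a ubiquitin ligase for BMP Smads and receptors, was at 20.6, 21.8 and 21.9 CPM in vector samples and at 34.2, 31.3 and 32.1 CPM in circEZH2_005 samples, a log2 fold change of 0.60 ± 0.08 (SE, adjusted p = 0.0207). Tob1, the highest of those that did not pass, had a log2 fold change of 0.15 (adjusted p = 0.576). The median log2 fold change over the 11 inhibitors was 0.10, with 8 positive values. Their summed level was 557 to 576 CPM in vector samples and 624 to 731 CPM in circEZH2_005 samples. None of the pathway genes passed without vector sample 1 or without vector sample 3, and only Skil did without circEZH2_005 sample 2.

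**Figure D5:**
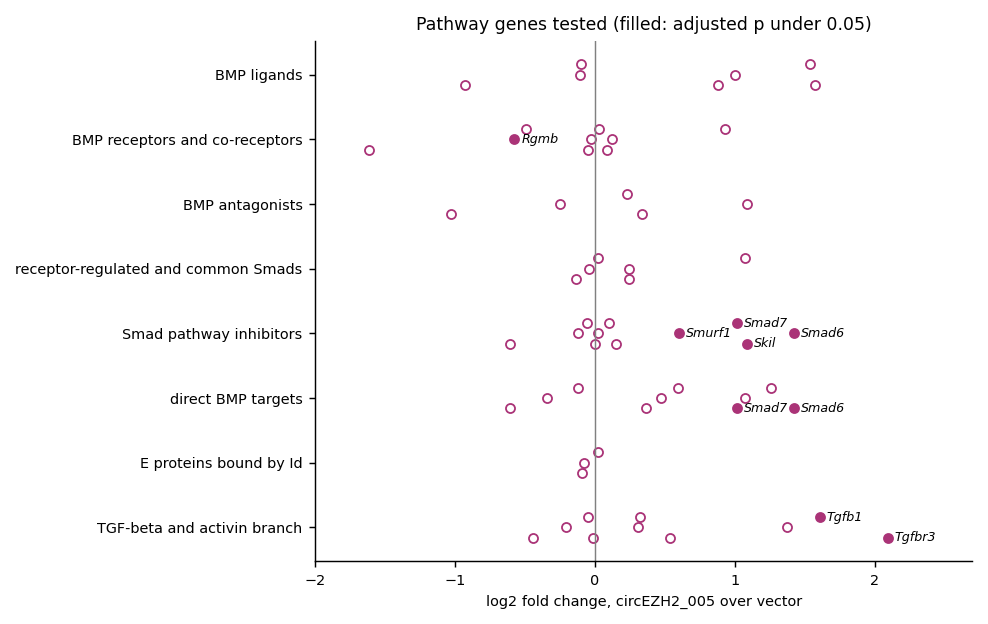
Log2 fold change (horizontal axis, circEZH2_005 over vector) of each tested gene of the BMP and TGF-beta lists, 1 row per list. Among the genes past an adjusted p of 0.05, Rgmb at -0.58 lay below 0 and Smurf1, Smad7, Skil, Smad6, Tgfb1 and Tgfbr3 lay between 0.60 and 2.09.

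Of 10 tested direct BMP targets, Smad6 and Smad7 rose and 8 did not pass, with a median log2 fold change of 0.53. These 10 include the members Id1, Id2, Id3, Smad6 and Smad7. Outside the members, Id4 (-0.12), Bambi (-0.61) and Atoh8 (-0.34) had negative log2 fold changes. Smad9 (1.07) and Hey1 (1.26) had positive ones, at only 7 to 24 and 4 to 29 counts per sample. The E proteins, the helix-loop-helix partners that Id proteins bind, did not pass either (0 of 3), and Tcf3, the most abundant, had a log2 fold change of -0.09 (adjusted p = 0.515). In the neighbouring TGF-beta and activin branch, which shares Smad4 and Smad7, 2 of 10 genes rose and none fell. Tgfb1, a TGF-beta ligand, was at 1.60, 2.57 and 1.95 CPM in vector samples and at 6.87, 6.64 and 5.16 CPM in circEZH2_005 samples (log2 fold change 1.61 ± 0.23 SE, adjusted p = 0.0215). Tgfbr3, the co-receptor betaglycan, went from 0.589 ± 0.190 to 2.52 ± 0.700 CPM (SD, n = 3, log2 fold change 2.09 ± 0.35 SE, adjusted p = 0.0301), and Gm43422, which shares exon sequence on its strand, could share its reads. Acvr1b, the most abundant of the branch, had a log2 fold change of -0.05 (adjusted p = 0.820). Leukocytes also make Tgfb1, and the part of leukocyte RNA in its value was not tested.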

How the data were processed

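RNA-seq of 6 samples (oligo(dT)-selected libraries, 3 per group) was analysed. The submitters' notes name cutadapt 1.9, HISAT2 2.0.4, StringTie 1.3.4d, DESeq2 and build mm10. The authors deposited the count of reads per gene and sample without normalization, and FPKM values that they computed. The strand setting, the counter and the annotation are not given in the sources used here. Columns named NC were taken as vector, the only control group. No sample column was left unused.

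The counts were filtered with filterByExpr and scaled with TMM, and the groups were compared with edgeR 4.0.16 (quasi-likelihood test, R 4.3.3, no covariate). P values were adjusted over all 18348 genes tested (Benjamini-Hochberg), with 0.05 as threshold. Standard errors are the log2 fold change over the square root of F. CPM uses the TMM-scaled library size. Fold changes were also computed with DESeq2 1.42.0, limma 3.58.1 on log2 FPKM, other scaling and filters, a replicate block, and without each sample. Scripts were tested on simulated data. Gene overlaps came from GENCODE M21.

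All 10 members were named, with genes of the lists that passed and the highest in FPKM of the rest. The other tested direct BMP targets were named too, and, for the Id genes, the 3 genes most like each. Promoters of Bmp2, Id1, Smad4 and Smad7 were not read. The motif results therefore do not cover Smad7, although it was called higher. Members and lists were chosen with earlier results of these data known. Total counts were 71506487 to 79919893 per sample, so counting error matters mainly for genes with few counts, such as Bmp4.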

Additional observations from a re-analysis of the deposited data

How the results depend on the processing

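The direction of 8 of the 9 tested members held under all 12 alternatives. Bmpr2 turned from -0.03 to 0.0053 without vector sample 1 and to 0.0084 without circEZH2_005 sample 2, and over all single samples left out it ranged from -0.072 to 0.0084. Smad6 was called in 4 of 12 alternatives (log2 fold change 0.80 to 1.83) and Smad7 in 6 of 12 (0.73 to 1.15). Both lower ends came from limma on log2(FPKM + 1), and with 0.1 added in place of 1 the values were 1.31 and 0.89. Members called were 2 on all samples, 1 with median-of-ratios scaling, 0 with no filter on low counts, 4 with DESeq2 (with Bmp2 and Id2), 0 with the replicate block and 2 with limma, and 0 to 5 when 1 sample was left out. Pathway genes called were 7, then 3 with no filter, 15 with DESeq2, 3 with the replicate block, and 0 to 12 with 1 sample left out. Of all genes, 493 were higher and 181 lower. These were 132 and 37 with no filter, 1588 and 701 with DESeq2, 241 and 36 with the replicate block, 371 and 364 with limma on log2(FPKM + 1), and 323 and 319 on log2(FPKM + 0.1). Leaving out 1 sample gave 26 to 1098 higher (26 without vector sample 1, 1098 without vector sample 2) and 2 to 334 lower. In the fit with the replicate block, Smad6 had adjusted p = 0.0510 and Smad7 0.0567. Over all genes, same-numbered samples did not deviate together (correlations of -0.14, -0.02 and 0.04), but 3 samples per group cannot exclude pairing. For Id1, Id2, Id3 and Smad6, sample 2 was the highest of both groups. The replicate block lowered the SE of these genes and of Bmp2, and raised it for Bmpr1a, Bmpr2, Smad4 and Smad7. FPKM scaling shifted the median log2 fold change of all genes by -0.09 at most. The cause of these differences was not tested.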
